A study of Mus musculus with 4 samples.

Results

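The 8 genes described here encode the enzymes that place methyl groups on cytosine in DNA, their cofactors, and the enzymes that oxidise those methyl groups. They are Dnmt1, Dnmt3a, Dnmt3b, Dnmt3l, Uhrf1, Tet1, Tet2 and Tet3, and they were taken as a functional group, with earlier results of these data known, from the 22367 protein-coding genes of the annotation. Every region of H3K36me3 (histone H3 trimethylated at lysine 36) or H3K9me3 (trimethylated at lysine 9) that lay inside these genes or within 5 kb of them was taken. This gave 47 of 31593 H3K36me3 regions and 21 of 32502 H3K9me3 regions, of which 44 and 20 lay in the genes themselves.

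The regions came from chromatin immunoprecipitation followed by sequencing (ChIP-seq) in mouse embryonic stem (ES) cells, with 1 library for each of 4 groups and no replicates. The groups were H3K9me3 and H3K36me3 in WT cells and the same marks in G34R cells. WT cells were unmodified 129S1/SvImJ ES cells with both H3.3 genes, H3f3a and H3f3b, intact. G34R cells carried 1 H3f3a allele from which Cre had removed a WT minigene and placed an H3.3 G34R coding sequence (glycine 34 to arginine in the histone variant H3.3) under the endogenous H3f3a promoter. Their remaining H3f3a allele and both H3f3b alleles were WT. All cells were at passage numbers below 20, and whether the G34R library came from 1 clone is not given in the sources used here. Each mark was described by 1 list of positions in which WT and G34R cells were pooled. A listed region may have been enriched in WT cells, in G34R cells or in both. No value per cell type was at hand, and WT and G34R cells were not compared. The read depth is unknown. Fewer cells with a mark and less of the mark per cell cannot be told apart in such data.

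Dnmt1 copies the methylation pattern onto new DNA strands after replication, and Uhrf1 brings it to hemimethylated sites. Dnmt3a and Dnmt3b set new methylation with the help of Dnmt3l, a relative that lacks catalytic activity, and both carry a PWWP domain that binds methylated H3K36. Tet1, Tet2 and Tet3 oxidise 5-methylcytosine to 5-hydroxymethylcytosine and beyond, which leads to its removal. H3K36me3 is laid down over the bodies of genes during transcription, whereas H3K9me3 is known from silent chromatin.

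The ES cell label was checked against marker genes. H3K36me3 was present in 11 of 12 ES cell markers (median 49.6% of the gene covered), in 0 of 6 fibroblast markers and in 0 of 6 markers of differentiated lineages, compared with 34% of all protein-coding genes. H3K9me3 was present in 2, 4 and 6 of the same lists, compared with 40.2%, with a median of 64.5% of the gene covered in the last.

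H3K36me3 lay in 8 of 8 genes, compared with 34% of all protein-coding genes and 41.8% of those of at least 20 kb, the length class to which all 8 belong. H3K9me3 lay in 3 of 8 (Dnmt3a, Dnmt3b and Tet3), compared with 40.2% of all protein-coding genes and 59.9% of those of at least 20 kb. The median share of the gene covered was 42.0% for H3K36me3 (range 1.77% to 90.8%) and 0% for H3K9me3 (range 0% to 25.2%). Over all protein-coding genes both medians were 0%, over those of at least 20 kb they were 0% and 1.21%, and over the genes that carried the mark they were 27.6% and 5.84%. In total, H3K36me3 covered 147227 bp of the 488795 bp spanned by the 8 genes (30.1%) and H3K9me3 covered 22400 bp (4.58%). Of the latter, 89.3% lay in Tet3. Both marks lay in 3 of the 8 genes, compared with 12.1% of all protein-coding genes and 20.2% of those of at least 20 kb, but bases in both lists were found in 1 of them (Tet3), compared with 7.14% and 12% of the same classes. With regions of at least 1 kb, Dnmt3a alone held both marks, since H3K36me3 in Tet3 and H3K9me3 in Dnmt3b fell to 0%.

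By the share covered by H3K36me3, the order was Uhrf1 (90.8%), Dnmt1 (79.2%), Dnmt3l (49.7%), Tet1 (49.5%), Dnmt3b (34.5%), Tet2 (20.3%), Dnmt3a (3.87%) and Tet3 (1.77%). This is the order in the deposited lists. With no replicates, there is no error against which neighbours in it can be compared. As a measure of how few or many 200 bp bins stand behind a share, the 95% Wilson interval was 73.4 to 83.9% for Dnmt1, 45.0 to 54.0% for Tet1 and 0.858 to 3.60% for Tet3. Adjoining bins are not independent, and the interval does not decide the order. The low shares rest on few regions: Tet3 fell to 0% with regions of at least 1 kb, and Dnmt3a came to 6.46% with regions joined within 2 kb. The Dnmt genes thus ranged from 3.87% to 79.2% and the Tet genes from 1.77% to 49.5%.

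**Figure D1:**
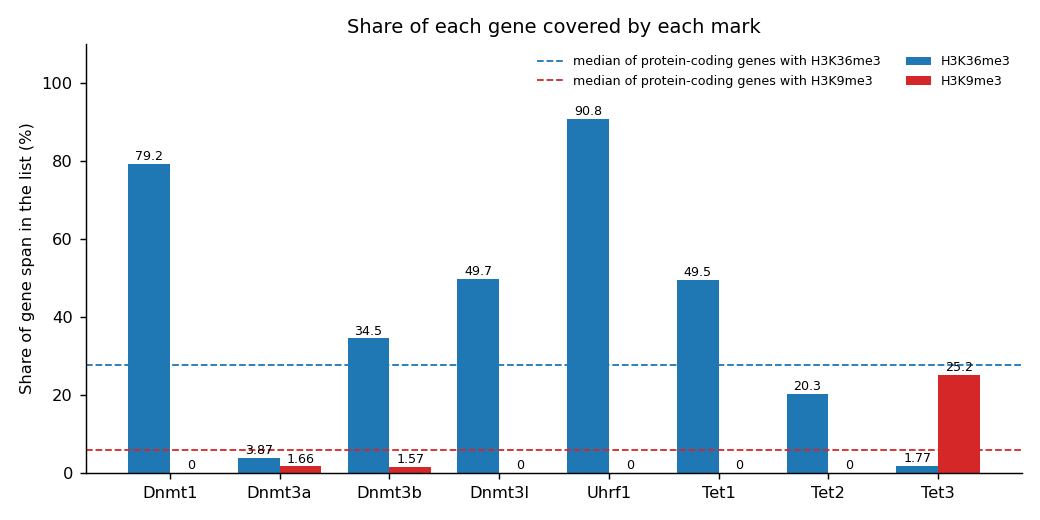
Share of the gene span (y axis, %) covered by H3K36me3 (blue bars) and H3K9me3 (red bars) in each of the 8 genes, from the pooled WT and G34R lists. Dashed lines mark the medians over the protein-coding genes that carry each mark, 27.6% and 5.84%, and Tet3 is the only one of the 8 in which the red bar is taller than the blue bar.

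Dnmt1, the maintenance methyltransferase, held the widest region. Dnmt1 (ENSMUSG00000004099.8) occupies chr9:20711650-20757317 on the minus strand, 45668 bp with 1 annotated transcript of 39 exons. A single H3K36me3 region of 36200 bp, chr9:20711601-20747800, covered 36151 bp of it. It began 9517 bp into the gene, in intron 1, and ran without a gap past the last base. Exon 1 lay outside it, and exons 2 to 39 lay at least partly inside it. The region held 98.4% of the coding bases and 76.9% of the intronic bases of Dnmt1. Along 10 equal parts of the gene, coverage was 0% in parts 1 and 2, 91.6% in part 3 and 100% in parts 4 to 10. No H3K9me3 region lay in Dnmt1 or within 5 kb of it, and the shared length was 0 bp.

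Among the 31593 H3K36me3 regions, 4 were wider than that of Dnmt1, and 0.0190% were at least as wide. The share of the gene covered was less extreme than the width of the region. It exceeded that of 97.7% of all protein-coding genes and 93.3% of those with H3K36me3, and 150 of the 9717 protein-coding genes over 20 kb had a larger share. Such coverage without a gap was uncommon: the 4059 genes of this length with H3K36me3 had a median of 5 regions, and 17 genes, Dnmt1 among them, had exactly 1 region that covered more than 50% of the gene. The 5 genes most like Dnmt1 by the summed difference in the shares covered by H3K36me3, by H3K9me3 and by both, over the other 9716 genes, were L3mbtl2 (79.2%), Rrn3 (79.1%), Bub1b (79.3%), Wdr5 (79.5%) and Hmgxb3 (79.5%). All of them lacked H3K9me3, and all reached this share with several regions (5, 9, 16, 5 and 16), the longest of which was 7600 bp.

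To show the sequence at the gene start and at the 5′ boundary of the region, the 300 bases before the start of Dnmt1 (chr9:20757318-20757617) and the 300 bases centred on the boundary (chr9:20747651-20747950) are printed below from NCBIM37, the assembly equivalent to mm9, on the minus strand. Capitals mark CG dinucleotides, the sites that these enzymes act on. The assembly is of another strain than the cells.
Dnmt1 before start: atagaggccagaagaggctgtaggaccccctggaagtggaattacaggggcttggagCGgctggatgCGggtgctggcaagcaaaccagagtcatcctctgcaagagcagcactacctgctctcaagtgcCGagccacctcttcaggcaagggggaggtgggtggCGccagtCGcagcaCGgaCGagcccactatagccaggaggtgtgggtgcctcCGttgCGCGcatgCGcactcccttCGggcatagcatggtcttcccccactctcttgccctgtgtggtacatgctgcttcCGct
Dnmt1 boundary: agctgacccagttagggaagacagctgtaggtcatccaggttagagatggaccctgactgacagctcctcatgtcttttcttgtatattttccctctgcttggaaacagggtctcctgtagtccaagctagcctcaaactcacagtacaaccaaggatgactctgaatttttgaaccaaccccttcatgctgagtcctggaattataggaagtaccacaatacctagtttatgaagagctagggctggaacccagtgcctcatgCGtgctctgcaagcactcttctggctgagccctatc
The stretch before the start held 13 CG and lay in neither list. It is upstream of the gene, and bins outside genes were not kept, so this does not show absence of the marks. The stretch at the boundary held 1 CG, its second part lay in the H3K36me3 region, and it contained no exon. For reference, CG occurred in 93.9% of the 300 base windows before the starts of protein-coding genes, with a median of 9, and in 93.4% of the central 300 bases of H3K36me3 regions, with a median of 3.

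Uhrf1, the partner that reads hemimethylated DNA, had the largest share of its span covered. With 5 kb added on both sides of each gene, its share was 61.0% and that of Dnmt1 65.0%. This reversal follows from gene length. Neither gene had a further region in its flanks, which lie largely outside genes, where bins were not kept. The added bases therefore lowered the share of the shorter gene more. Uhrf1 (ENSMUSG00000001228.8) occupies chr17:56442744-56462909 on the plus strand, 20166 bp with 17 exons in its main transcript. It held H3K36me3 regions of 16000 bp (chr17:56444401-56460400) and 2400 bp (chr17:56460601-56463000), separated by 1 bin of 200 bp. They covered 18309 bp, a share larger than that of 99.6% of protein-coding genes. Exons 2 to 17 and 100% of the coding bases lay in them, and exon 1 did not. The first began 1657 bp into the gene. Only 0.320% of H3K36me3 regions were at least as wide as the longer of the pair. H3K9me3 was in neither the gene nor its flanks. The neighbouring Kdm4b, a demethylase of H3K9 and H3K36 whose gene begins 2575 bp downstream, was covered by H3K36me3 over 48.8% of its length, but none of its regions came within 5 kb of Uhrf1.

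**Figure D2:**
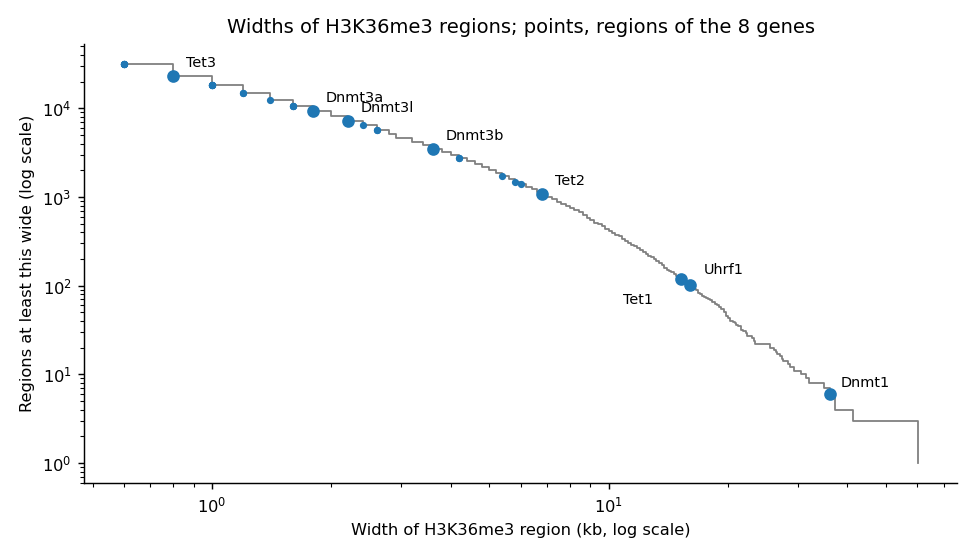
Number of H3K36me3 regions (y axis, log scale) that are at least as wide as the width on the x axis (kb, log scale), for the whole list (grey line) and for the regions of the 8 genes (points, the widest of each gene large and named). The Dnmt1 region of 36200 bp lies at the far end, ahead of those of Uhrf1 (16000 bp) and Tet1 (15200 bp).

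The de novo methyltransferases differed in how much H3K36me3 they carried. Dnmt3b (ENSMUSG00000027478.9, chr2:153475186-153513466, plus strand, 38281 bp) held 8 H3K36me3 regions that covered 13200 bp. They ran from chr2:153486801-153489400, 11615 bp into the gene, to chr2:153511601-153512600, 866 bp before its end, and the longest was chr2:153500201-153503800. They touched 16 of the 24 exons of the main transcript, from exon 3 to exon 24, and held 77.1% of its coding bases. Dnmt3a (ENSMUSG00000020661.9, chr12:3806007-3914443, plus strand, 108437 bp) held 4 regions that covered 4200 bp, and all lay between chr12:3897201 and chr12:3904200. The first began 91194 bp into the gene, which is 84.1% of its length. They touched 8 of 23 exons, all between exons 11 and 20, and held 29.7% of the coding bases of the main transcript. Dnmt3a is annotated with 13 distinct starts of coding transcripts, and the nearest lay 1608 bp upstream of the first region. From the first region to the last, 13200 of 25800 bp were covered in Dnmt3b (51.2%) and 4200 of 7000 bp in Dnmt3a.

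Both genes also held 1 H3K9me3 region each, and in both it lay at the gene start. In Dnmt3a it was chr12:3806201-3808000, 1800 bp that began 194 bp into the gene and touched exon 1 of the main transcript. In Dnmt3b it was chr2:153475401-153476000, 600 bp that began 215 bp into the gene and included part of exon 1. The latter also lies in the noncoding gene 7530422B04Rik on the opposite strand. These regions covered 1.66% and 1.57% of the genes and held 0 coding bases. With regions of at least 1 kb, Dnmt3b held no H3K9me3, and with the longest coding transcript in place of the gene span, the Dnmt3a share was 0.904%. The next H3K36me3 region was 89200 bp away in Dnmt3a and 10800 bp away in Dnmt3b, so the marks stood at opposite ends of Dnmt3a and shared no bases in either gene. H3K9me3 within 1 kb of the gene start was found in 2 of the 8 genes, compared with 19.1% of protein-coding genes. For H3K36me3 it was 1 of the 8 (Dnmt3l, through a region that lies in the overlapping gene Aire), compared with 2.62%.

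The H3K9me3 regions at these starts were rich in CG, and the 300 base window with the most CG outside exons is shown from each, from NCBIM37, on the plus strand, with CG in capitals. They are chr12:3807268-3807567 for Dnmt3a and chr2:153475477-153475776 for Dnmt3b.
Dnmt3a start: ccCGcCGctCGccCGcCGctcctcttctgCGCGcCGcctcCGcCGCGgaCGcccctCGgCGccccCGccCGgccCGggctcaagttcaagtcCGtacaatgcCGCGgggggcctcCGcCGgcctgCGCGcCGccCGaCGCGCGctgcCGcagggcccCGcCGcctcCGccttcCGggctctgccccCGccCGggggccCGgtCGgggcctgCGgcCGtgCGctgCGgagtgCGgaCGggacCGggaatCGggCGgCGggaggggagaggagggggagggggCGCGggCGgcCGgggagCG
Dnmt3b start: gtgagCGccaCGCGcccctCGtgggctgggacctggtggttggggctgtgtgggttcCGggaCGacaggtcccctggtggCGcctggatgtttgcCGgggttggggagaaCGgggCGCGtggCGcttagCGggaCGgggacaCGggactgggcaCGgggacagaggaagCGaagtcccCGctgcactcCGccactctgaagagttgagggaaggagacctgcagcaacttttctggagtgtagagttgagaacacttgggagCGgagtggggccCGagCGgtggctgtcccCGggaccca
The Dnmt3a window held 53 CG and the Dnmt3b window 23, in each case inside the H3K9me3 region and outside exons. These windows were picked for their CG, so their counts are compared with no other windows. The full Dnmt3a region held 255 CG at 79.7% G+C, with a ratio of observed to expected CG of 0.913, and that of Dnmt3b held 49 CG at 65.7% G+C, with a ratio of 0.777. This was 142 and 81.7 CG per kb, compared with a median of 12.3 over all H3K9me3 regions, which are not limited to gene starts. The number of CG around the outermost annotated start did not separate the genes with H3K9me3 there from the others. In the 2 kb around this start, Dnmt3b had 131 CG and Dnmt3a 104, whereas Tet2 had 141, Uhrf1 105, Tet3 86, Dnmt1 78, Dnmt3l 32 and Tet1 23. The median over protein-coding genes was 99 with H3K9me3 in that window and 49 without. By G+C in the same 2 kb, Dnmt3b (62.1%) and Dnmt3a (60.8%) came before the other genes, the next of which was Tet2 (59.5%). The median G+C over protein-coding genes was 56.9% with H3K9me3 in that window and 49.8% without. The windows and these comparisons were chosen after the values were seen. In Dnmt3a the outermost start belongs to a transcript annotated as a retained intron, and the main transcript starts 1023 bp into the gene. The 2 kb window of Dnmt3a held 807 bp of its H3K9me3 region of 1800 bp. The place of Dnmt3a by CG and by G+C therefore depends on the start used, and windows around its main start were not measured.

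Dnmt3l, the cofactor of the de novo enzymes, held H3K36me3 over 81.8% of the extent from its first region to its last. Dnmt3l (ENSMUSG00000000730.7, chr10:77504692-77526367, plus strand, 21676 bp) held 7 H3K36me3 regions that covered 10767 bp between chr10:77513201 and the end of the gene. The longest was chr10:77524201-77526400, and 4 of the 6 gaps were 1 bin wide. They touched exons 4 to 14 of 14 and held 89.5% of the coding bases. The first began 497 bp after the start of a shorter coding transcript at chr10:77512704. A pair of further regions lay upstream, chr10:77503801-77504400 and chr10:77499201-77500200, at 291 and 4491 bp from the gene, and both lie in Aire, which overlaps the start of Dnmt3l on the opposite strand and was itself covered over 51.8% of its length. H3K9me3 was in neither the gene nor its flanks.

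**Figure D3:**
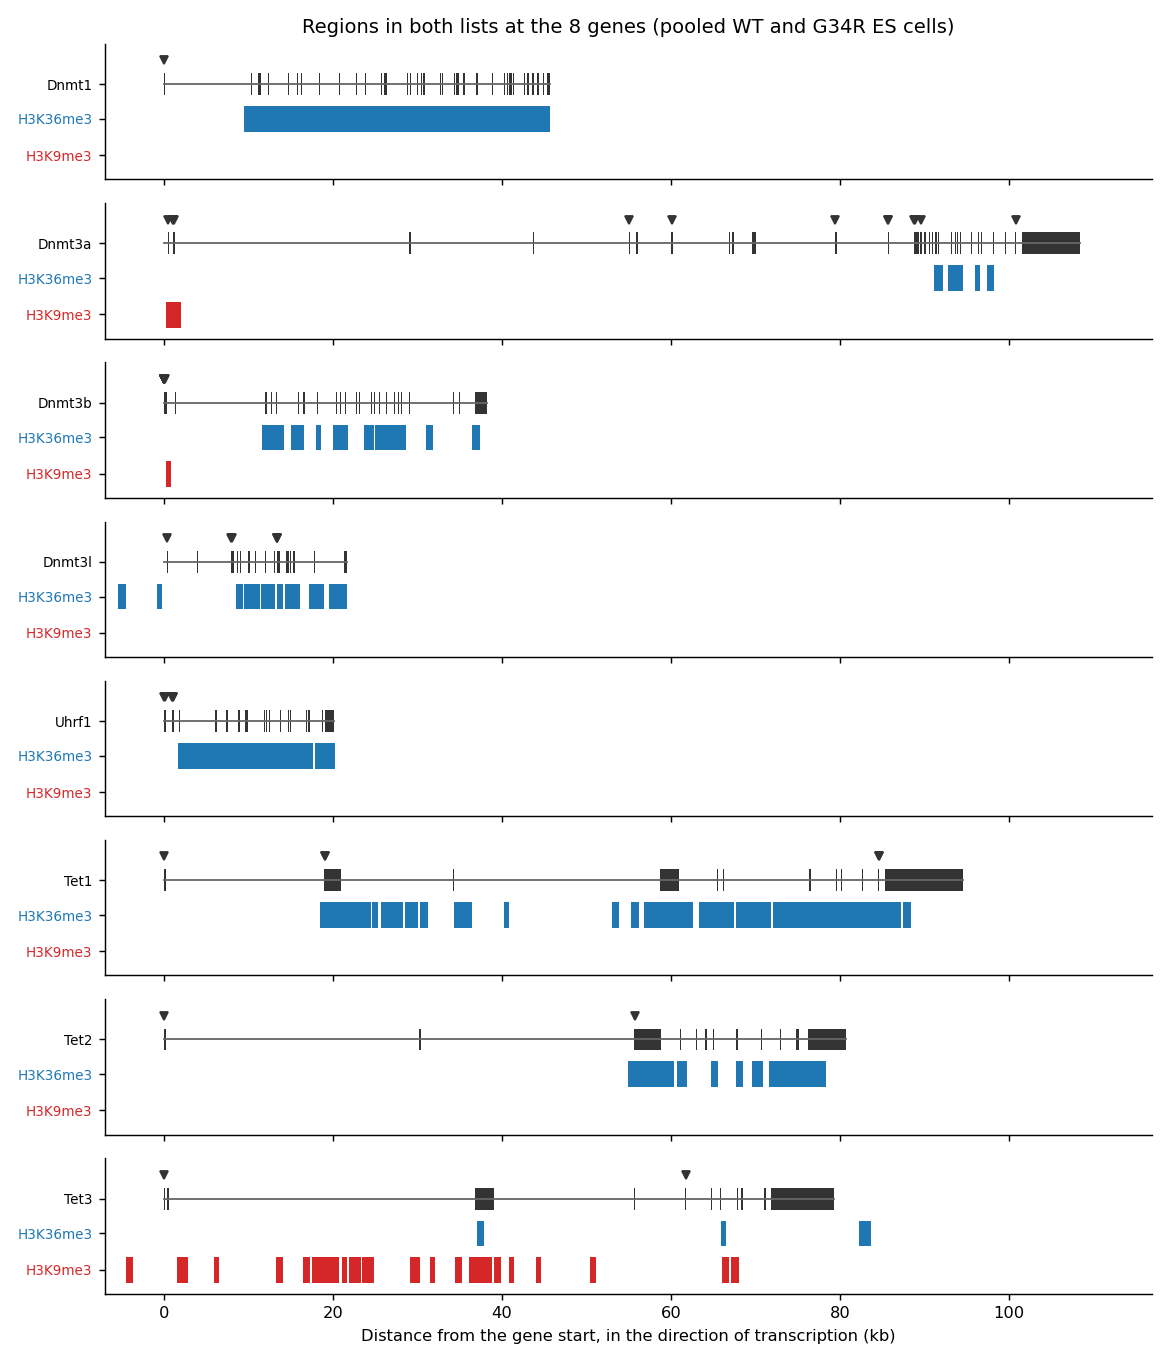
Positions of H3K36me3 regions (blue) and H3K9me3 regions (red) along each gene, drawn to scale against the distance from the gene start in the direction of transcription (x axis, kb). Dark boxes are exons of all transcripts and triangles are starts of coding transcripts. The Dnmt1 region is unbroken, and in Tet2 the regions begin beside the internal start.

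Of the Tet genes, Tet1 carried the most H3K36me3. Tet1 (ENSMUSG00000047146.8, chr10:62267318-62361866, minus strand, 94549 bp) held 14 regions that covered 46800 bp. The longest was chr10:62274601-62289800 (15200 bp), which reached from exon 7 into exon 13, followed by chr10:62337401-62343400 (6000 bp) at exon 2 and chr10:62299201-62305000 (5800 bp) at exon 4. Together the regions touched exons 2 to 13 of 13 and held 99.9% of the coding bases, but 48.5% of the intronic bases. A gap of 12200 bp separated the regions around exons 2 and 3 from those around exons 4 to 13. Coverage in the 10 parts of the gene was accordingly 92.6% in part 3, 6.35% in part 5 and 100% in part 9. H3K9me3 was in neither the gene nor its flanks.

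Tet2 (ENSMUSG00000040943.7, chr3:133126643-133207354, minus strand, 80712 bp) held 6 regions that covered 16400 bp, all in its downstream part. The most upstream, chr3:133147001-133152400 (5400 bp), began 54954 bp into the gene, and the longest, chr3:133129001-133135800 (6800 bp), reached from exon 8 into exon 10 and ended 2358 bp before the gene end. Parts 1 to 6 of the gene held 0% and part 10 held 70.8%. Of the 10 exons of the main coding transcript, 8 were touched, exons 3 and 4 were not, and 94.7% of the coding bases of that transcript were covered. The transcript starts at chr3:133151635, so the regions began 765 bp upstream of it. H3K9me3 was in neither the gene nor its flanks.

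The place where H3K36me3 began was next compared with all annotated starts of coding transcripts. In 4 of the 8 genes the 5′ edge lay within 1 kb of such a start, compared with 7.42% of the 4059 genes of at least 20 kb with H3K36me3. This measure depends on how many distinct starts a gene has, for which the 4059 genes were not matched. The number was 4 in Dnmt3l, 5 in Uhrf1, 4 in Tet1 and 2 in Tet2. In the other genes it was 1 (Dnmt1), 13 (Dnmt3a), 4 (Dnmt3b) and 2 (Tet3). The edge was 497 bp downstream in Dnmt3l and 571 bp downstream in Uhrf1 (of a transcript that starts at chr17:56443830). It was 638 bp upstream in Tet1 (of transcripts that start at chr10:62342762) and 765 bp upstream in Tet2. All of these starts lay inside the gene, at a distance from its outermost start. In Dnmt1, which has 1 annotated start, the edge was 9517 bp away, and in Dnmt3b, whose nearest start is close to its outermost start, 11448 bp. It was 1608 bp away in Dnmt3a and 24704 bp away in Tet3. The median over the 4059 genes was 12830 bp from the gene start and 8006 bp from the nearest coding start. The comparison was made after the edges were seen, and whether the internal starts were used in these cells was not tested.

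**Figure D4:**
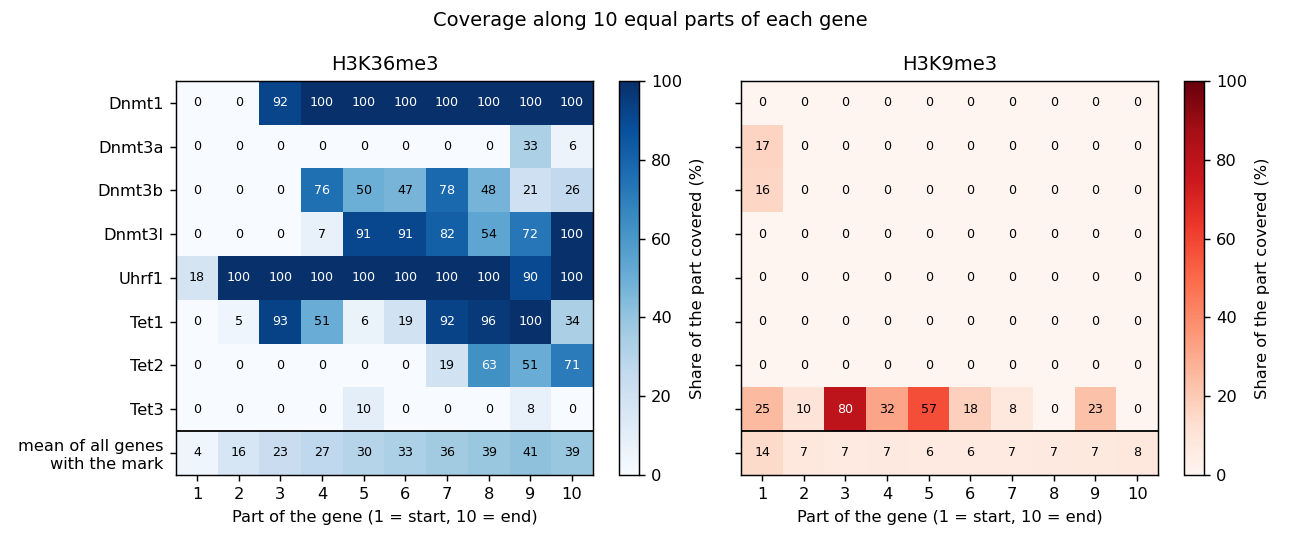
Share (%, colour and number) of each of 10 equal parts of a gene, from its start to its end (x axis), that was covered by H3K36me3 (left) and H3K9me3 (right) in the 8 genes. The bottom row is the mean over genes of at least 10 kb with the mark. H3K36me3 rises along the genes from 4.48% in part 1 to 41.3% in part 9 on average, and Dnmt1 reaches 100% from part 4 on.

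Tet3 showed the reverse of the other genes. Tet3 (ENSMUSG00000034832.8, chr6:83312367-83391672, minus strand, 79306 bp) held 18 H3K9me3 regions that covered 20000 bp, or 25.2% of the gene (interval 21.2 to 29.7%), and 2 H3K36me3 regions that covered 1400 bp. The H3K9me3 share exceeded that of 93.3% of all protein-coding genes and 83.2% of those with the mark. With regions of at least 1 kb the share was 15.6%, for which no such comparison was made. The regions lay between 1472 and 68071 bp from the gene start, with a largest gap of 15000 bp, and were densest in parts 3 (79.7% covered) and 5 (57.1%). The widest were chr6:83371001-83374200 (3200 bp), which lies in an intron, and chr6:83352801-83355600 (2800 bp) at exon 3. Exon 3, which is long, and exon 8 were the exons of the main transcript that they touched, and 89.5% of the covered bases were intronic. H3K9me3 nevertheless held 41.2% of the coding bases of Tet3, 1973 of them in the region at exon 3, compared with 17.1% in H3K36me3. No H3K9me3 region lay within 1 kb of the gene start.

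Tet3 was also the only one of the 8 genes with bases in both lists, and with regions of at least 1 kb it had 0 shared bases. The H3K36me3 region chr6:83353801-83354600 (800 bp) lay entirely in coding sequence of exon 3 and entirely inside the H3K9me3 region there, of which it made up 28.6%. The shared length in the whole gene was 1200 bp, beside a median of 1000 bp over the 1596 protein-coding genes with shared bases, and 697 of these had more. The product of the shares covered by each mark would give 353 bp. As the lists pool WT and G34R cells, whether both marks were enriched there in the same cells cannot be told.

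The sequence of the shared stretch in exon 3 is shown because both marks were called there. Its central 300 bases, chr6:83354051-83354350, are printed from NCBIM37 on the minus strand, with CG in capitals.
Tet3 exon 3: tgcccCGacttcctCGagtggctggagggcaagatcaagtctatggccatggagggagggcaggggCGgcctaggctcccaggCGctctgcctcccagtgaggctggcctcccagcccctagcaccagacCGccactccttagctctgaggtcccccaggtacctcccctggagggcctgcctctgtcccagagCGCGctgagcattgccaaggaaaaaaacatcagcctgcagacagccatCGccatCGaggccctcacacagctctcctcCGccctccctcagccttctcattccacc
The stretch held 10 CG in these 300 bases and 27 in its 800 bp at 63.4% G+C.

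Beyond Tet3 itself, an H3K9me3 region of 800 bp (chr6:83395401-83396200) lay 3728 bp upstream in the noncoding gene B230319C09Rik, and an H3K36me3 region of 1400 bp (chr6:83308001-83309400) lay 2966 bp downstream in Bola3. With the regions in Aire, these were the only regions in the flanks of 5 kb that were outside the 8 genes. Each lay in another annotated gene, which the lists required, since bins outside genes were not kept. The furthest inside the limit was at 4491 bp (in Aire), and the nearest outside it were an H3K9me3 region at 5728 bp upstream of Tet3 and an H3K36me3 region at 5891 bp upstream of Dnmt3l.

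**Figure D5:**
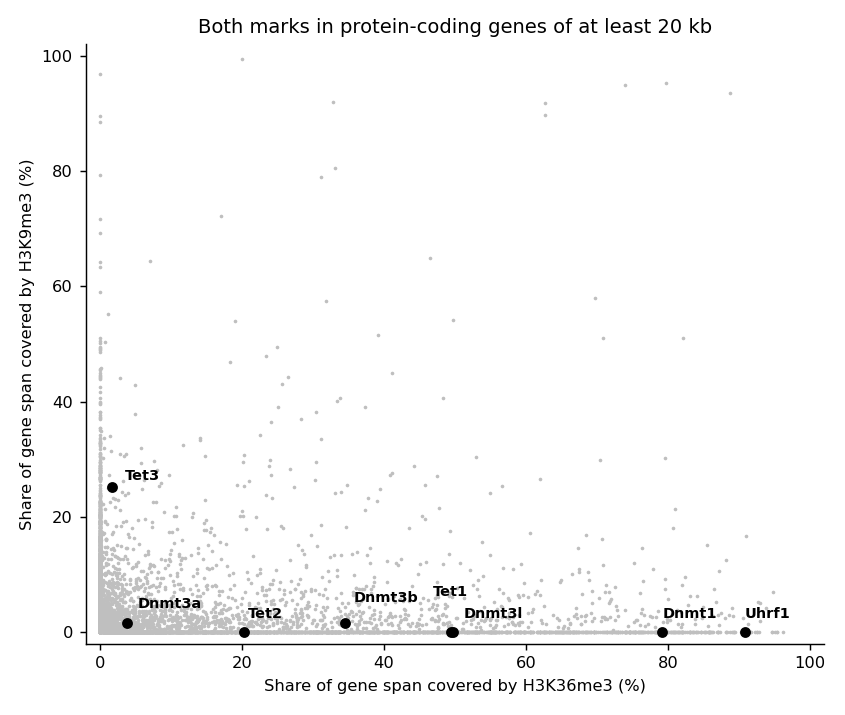
Share of the gene covered by H3K36me3 (x axis, %) and by H3K9me3 (y axis, %) in protein-coding genes of at least 20 kb (grey points), with the 8 genes in black. Tet3 stands high on the y axis at 25.2%, and Dnmt1 and Uhrf1 lie at 79.2% and 90.8% on the x axis with 0% H3K9me3.

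Taking the 8 genes as a whole, H3K36me3 covered 76.4% of their coding bases, 17.4% of their untranslated bases and 27.8% of their intronic bases. For H3K9me3, these values were 6.69%, 1.22% and 4.74%. Introns still made up 79.3% of the covered bases for H3K36me3 and 88.8% for H3K9me3. Their 44 H3K36me3 regions had a median width of 1600 bp, compared with 1000 bp over the list, and their 20 H3K9me3 regions had a median of 800 bp, the same as over the list. The base composition of the regions was close to that of the lists, with a median G+C of 47.5% compared with 46.9% for H3K36me3 and of 48.4% compared with 47.7% for H3K9me3. Sequence copied elsewhere in the genome was rare in them: the central 50 bases occurred once in the assembly in 96.9% of 737 bins with H3K36me3, in 99.1% of 112 bins with H3K9me3 and in 95.3% of 1609 bins of these genes with neither mark. For H3K9me3 in Tet3 it was 99 of 100 bins.

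Lastly, 27 genes that act with these enzymes were examined, of which 20 held H3K36me3 and 7 held H3K9me3, compared with 34% and 40.2% of protein-coding genes. Their median H3K36me3 share was 33.0%. Of 8 genes for maintenance and targeting of methylation, 6 held H3K36me3 (median share 38.5%). The largest shares were in Trim28 (89.8%), a corepressor recruited by zinc finger proteins, and Zfp57 (65.2%), which guards methylation at imprinted loci. H3K9me3 was found in Uhrf2, a relative of Uhrf1, at 1.90%. Of 7 methyl-CpG binding proteins, 5 held H3K36me3 (median share 2.37%), led by Mbd1 (44.4%) and Mbd3 (33.0%), and 3 held H3K9me3, led by Zbtb4 (4.35%) and Mbd1 (4.16%). Of 12 genes for base removal and Tet partners, 9 held H3K36me3 (median share 43.0%), led by Parp1 (84.2%), which acts in repair of DNA strand breaks, and Gadd45b (66.2%). In this list 3 held H3K9me3, led by Cxxc4 (11.8%) and by Tdg (7.63%), the glycosylase that excises the products of Tet enzymes. Shared bases were found in 4 of the 27, compared with 7.14% of protein-coding genes, and the 4 are named here after their values were seen: Tdg (1400 bp), Zbtb38 (1000 bp), Mbd1 (600 bp) and Xrcc1 (600 bp). None of the 27 had an H3K9me3 share as large as that of Tet3, and none held an H3K36me3 share as large as that of Uhrf1.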

How the data were processed

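Chromatin from WT and G34R ES cells was immunoprecipitated for H3K9me3 or H3K36me3, with 1 library per group. The authors aligned reads to mm9 with Bowtie (v1.0.0), with a limit on multiple alignments, removed duplicates, counted reads in 200 bp bins in SeqMonk, normalised to library size, and matched the distributions of WT and G34R cells. Bins in annotated genes that exceeded a high percentile in either cell type were joined with BedTools (v2.20.1; the tool versions are those of the submitters' processing notes). Regions with extreme read counts were removed. The study's methods also state that merged regions above a size limit were excluded, whereas both deposited lists hold only regions of 600 bp or more and include far wider ones, so how the limit was applied, and with it what the widths were selected on, is not settled here. Because the threshold is a percentile and bins outside genes were dropped, absence from a list does not show absence of the mark. The deposited lists give positions only (3 columns: chromosome, start and end), with no counts, signal or p-values.

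From these lists, covered and shared bases were computed per gene in Python (v3.11.15) with numpy (v2.4.6) and pysam (v0.24.0), and plotted with matplotlib (v3.10.9). Gene spans, exons and coding sequence came from the GENCODE annotation of NCBIM37, whose chromosome 13 length (120284312) equalled the last region end on that chromosome. Overlap was counted from 1 bp. The main transcript of a gene is that with the most coding bases. Coordinates are 1-based. Shares carry 95% Wilson intervals over 200 bp bins, which cover counting error only, and adjoining bins are not independent. With 1 library per group and no value per cell type, no test was run. The code was tested on simulated data with 0 differences in 2000 tests. The 8 genes and the lists of partners and markers were chosen with earlier results of these data known. Named were all 8 genes, the 5 genes most like Dnmt1, and for each partner list the 2 with the largest share for each mark. Alternatives were regions of at least 1 kb, joining within 2 kb, the longest coding transcript, spans extended by 5 kb, and stricter rules for shared bases. Details of 1 further shared stretch are not reported here.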

Additional observations from a re-analysis of the deposited data

How the results depend on the processing

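The lists hold no value per library, so neither replicate error nor a difference between WT and G34R cells could be given, and the depth that limits what entered the lists is unknown. No paired analysis was possible because each group had 1 library and the lists pool the groups. Of 26 alternative values for the counts and medians over the 8 genes and for the shared bases at Dnmt1, 22 stayed within the tolerance and 4 moved. The tolerance was 1.5 times for a count and the Wilson interval for a shared length. For a median share it was the Wilson interval of that median at the median number of bins of the 8 genes. With regions of at least 1 kb, the number of genes with shared bases fell from 1 to 0, since both H3K36me3 regions of Tet3 are narrower than that, and H3K36me3 and H3K9me3 were then found in 7 and 2 of the 8 genes, without Tet3 and Dnmt3b respectively. The median share covered by H3K36me3, 42.0%, became 36.6% with regions of at least 1 kb, 51.5% with regions joined within 2 kb and 32.5% with 5 kb added to both sides of each gene, as each of these removes or adds covered or uncovered bases by construction. Of 92 alternative values for single genes, 79 stayed inside the Wilson interval and 13 moved. Shares of a few percent have wide intervals relative to their size: inside them, H3K9me3 in Dnmt3a went from 1.66% to 0.904% with the longest coding transcript, and H3K36me3 went from 3.87% to 2.58% in Dnmt3a with regions of at least 1 kb and from 1.77% to 3.14% in Tet3 with 5 kb on both sides. Among those that moved, H3K36me3 in Dnmt3a was 6.46% with joined regions and in Tet3 0% with regions of at least 1 kb. The share of Tet3 covered by H3K9me3 was 15.6% with regions of at least 1 kb and 30.8% with joined regions. With 5 kb on both sides, the share covered by H3K36me3 was 65.0% for Dnmt1 and 61.0% for Uhrf1. This reverses their order by construction, as the flanks of both held no further region and weigh more on the shorter gene. The planned percentiles of the shared bases at Dnmt1 among genes with both marks and among genes with shared bases were not run, as Dnmt1 holds no H3K9me3 and belongs to neither set.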
